A study of Mus musculus with 12 samples.

Results

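Brains of mice given ShK-223, an engineered relative of a sea anemone venom peptide, were compared with brains of mice given PAP-1, a small molecule of the psoralen class. Both compounds block the potassium channel Kv1.3. The comparison took the 6 libraries labelled with either compound, 3 from ShK-223 mice and 3 from PAP-1 mice, out of 12 in the series. All 12 mice carried the 5xFAD transgenes, which include mutant human APP under the Thy1 promoter, active mainly in neurons, and develop amyloid plaques. The other 6 libraries came from 3 mice labelled PBS and 3 labelled Control, both 5xFAD too, and are given here as background. No mouse gave more than 1 library, and whole brain is the tissue named in the labels. Strain is labelled as not specified. The sources used here do not give dose, route, duration, age or sex, nor how Control mice differ from PBS mice, so whether the 2 compounds were given at matched doses or times is unknown, and the values below are of the 2 treatment arms as labelled. Batch names also differed between the arms: ShK-223 1 and 3 were in batch CH and ShK-223 2 in batch B, while PAP-1 1 and 3 were in batch B and PAP-1 2 in batch C.

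Kv1.3 is a voltage-gated potassium channel of the Shaker family, whose pore subunits, encoded by Kcna3, can assemble with related Kv1 subunits and with cytoplasmic beta subunits. It sets the membrane potential of T cells and of activated microglia and so sustains the calcium entry that their activation needs. In amyloid models it is studied as a target in microglial inflammation. ShK peptides plug the channel from outside, whereas PAP-1 binds within the channel and stabilises its inactivated state, and the comparison asks how the brain transcriptome of animals given one differs from that of animals given the other.

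The 6 libraries held 15123977 to 19048551 counts on genes, with RNA integrity numbers of 7.8 to 8.9. Library similarity overlapped within and between arms. The correlation of log2 CPM, counts scaled to a common library total, across genes was 0.967 to 0.990 within ShK-223, 0.966 to 0.989 within PAP-1 and 0.956 to 0.987 between the arms. ShK-223 1 and PAP-1 1 lay on one side of the first principal component, which held 47.0% of the variance, and the other 4 lay on the opposite side. Markers of brain regions went against a uniform whole brain sample. Over 19 cerebellar genes the summed CPM reached 2372 in PAP-1 1 while the remaining inhibitor libraries had 700.5 to 1249, against 10490 to 11440 in PBS, 10030 in Control 2 and 1086 and 1172 in Control 1 and 3. PBS and Control 2 were thus not matched to the inhibitor libraries in regional makeup, which limits their use as background below.

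No gene separated the arms at the genome-wide threshold. Among 15061 genes tested with the quasi-likelihood test of edgeR, 0 were higher (0%) and 0 lower (0%) with ShK-223 at an adjusted p under 0.05, and the smallest adjusted p was 0.984. At an unadjusted p under 0.05 there were 684 genes (4.54%), of which 292 were lower with ShK-223 (1.94%) and the others higher (2.6%). DESeq2 called 5 genes, 2 higher and 3 lower, and limma-voom called 0, with 795 and 676 genes respectively at an unadjusted p under 0.05. The 3 ShK-223 libraries lay above all 3 PAP-1 libraries for 749 genes (4.97%) and below them for 849 (5.64%). Differences are given as log2 of ShK-223 over PAP-1, so that positive values mean more with ShK-223. Their median was -0.00014, and 5% of genes lay below -0.50 and 5% above 0.53.

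The precision sets what this comparison could have shown. The median standard error (SE) of a log2 difference was 0.17. For 11392 of 15057 genes (75.7%) the 95% interval of the difference lay within 1 log2 unit, a 2-fold difference, in either direction, and for 8244 it lay within 1.5-fold. For the remaining genes a larger difference between the compounds was not excluded by the interval. A difference of more than 1 log2 unit was estimated for 443 genes (2.94%).

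**Figure D1:**
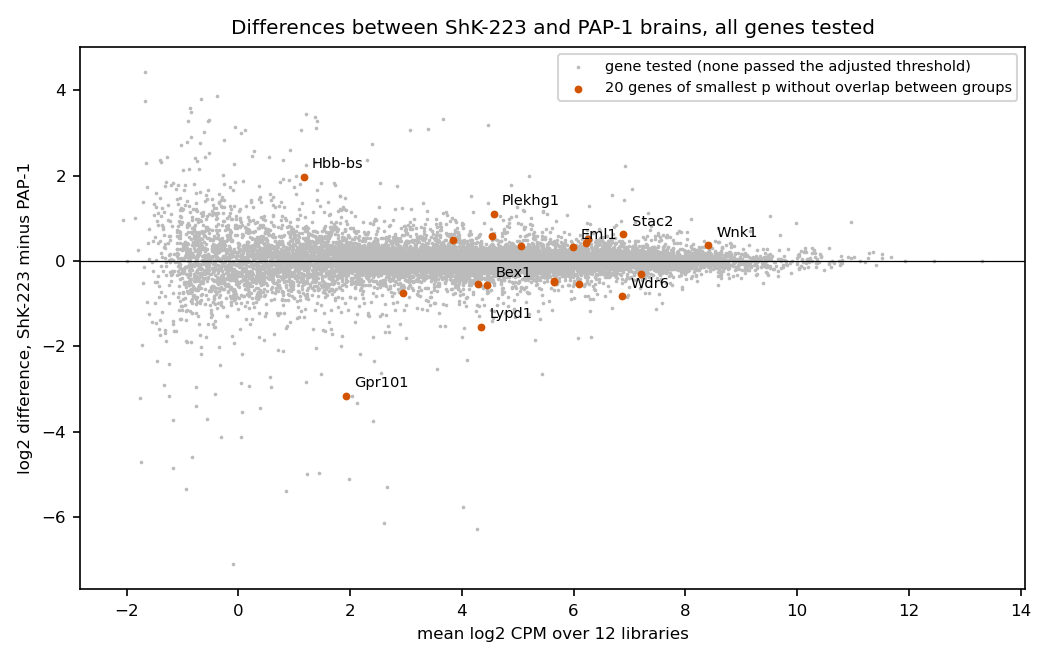
Log2 difference of ShK-223 minus PAP-1 for each of 15061 genes (vertical axis) against the mean log2 CPM over 12 libraries (horizontal axis), with the 20 named genes of smallest p in orange. The cloud is centred on 0 with a median of -0.00014, its width grows toward low expression, and no point passed the adjusted threshold.

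The 10 named genes with higher values in all ShK-223 libraries differed by 0.33 to 1.98 on the log2 scale, from Eml1 to Hbb-bs. Stac2, an adaptor protein of voltage-gated calcium channels (GRCm38 chromosome 11, 98036623 to 98053462), was at 146, 153.5 and 134 CPM in ShK-223 1, 2 and 3 and at 109.9, 96.1 and 73.1 CPM in PAP-1 1, 2 and 3. The arms did not overlap, PBS at 103 to 110.5 CPM overlapped PAP-1, and Control at 133 to 146 CPM overlapped ShK-223. The log2 difference was 0.63 (SE 0.13, 95% interval 0.35 to 0.92), with an unadjusted p of 0.000494 and an adjusted p of 0.984 in edgeR. Eml1, a microtubule-binding protein (chromosome 12, 108370957 to 108539617), stood at 61.5, 66.2 and 62.7 CPM with ShK-223 against 47.7, 51.7 and 51.8 CPM with PAP-1. PAP-1 lay below the 64.5 to 71.0 CPM of Control, which ShK-223 overlapped, and both arms lay below the 72.2 to 76.7 CPM of PBS. The difference for Eml1 was 0.33 (SE 0.07).

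The same shape, with PAP-1 below both ShK-223 and the background groups, was seen for Pml, which builds nuclear bodies. It was at 27.7, 26.0 and 22.98 CPM with ShK-223, at 17.8, 19.0 and 14.4 CPM with PAP-1, and at 23.6 to 27.8 CPM in PBS. Its log2 difference was 0.58 (SE 0.13). Wnk1, a kinase that regulates chloride cotransporters, was at 303, 372 and 337 CPM with ShK-223 and at 247, 269.6 and 262 CPM with PAP-1, with 392.1 to 444.4 CPM in PBS. Lrrk2, a kinase known from familial Parkinson disease, was at 75.5, 102 and 82.02 CPM against 64.3, 61.8 and 56.0 CPM. Both kinases had non-overlapping arms, with log2 differences of 0.38 (SE 0.09) for Wnk1 and 0.51 (SE 0.12) for Lrrk2. Grip2, a scaffold of AMPA-type glutamate receptors, had a difference of 0.36 (SE 0.09), Mast4, a microtubule-associated kinase, of 0.42 (SE 0.10) and Plekhh2 of 0.48 (SE 0.10). Plekhg1 was at 25.2, 27.8 and 53.0 CPM with ShK-223 and 18.9, 17.1 and 13.1 CPM with PAP-1. Its log2 difference of 1.11 (SE 0.26) leaned on ShK-223 3 and was 0.70 without that library.

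Among genes lower with ShK-223, Bex1 had the smallest unadjusted p of all genes tested, 0.000285, with an adjusted p of 0.984 in edgeR. Bex1 encodes a small brain-expressed adaptor (chromosome X, 136213972 to 136215513) and was at 16.9, 16.3 and 17.0 CPM in ShK-223 1, 2 and 3 and at 22.5, 25.7 and 26.1 CPM in PAP-1. All 3 ShK-223 libraries also lay below the 23.6 to 26.5 CPM of PBS and the 19.1 to 24.1 CPM of Control. The log2 difference was -0.57 (SE 0.11, 95% interval -0.80 to -0.33). Prxl2b, a peroxiredoxin-like enzyme of prostaglandin synthesis, showed a like order, at 39.9, 41.5 and 40.0 CPM with ShK-223 and 57.2, 58.9 and 55.2 CPM with PAP-1, with 51.2 to 59.6 CPM in PBS and 40.4 to 55.4 CPM in Control. Its difference was -0.50 (SE 0.11). The SD over the 3 libraries was 0.892 CPM with ShK-223 and 1.88 CPM with PAP-1.

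Lypd1, which binds and dampens nicotinic acetylcholine receptors (chromosome 1, 125867622 to 125913101), was at 22.8, 15.9 and 17.4 CPM with ShK-223 and at 29.6, 49.2 and 83.95 CPM with PAP-1. PAP-1 lay above the 15.2 to 21.9 CPM of Control, which ShK-223 overlapped, and both arms lay above the 8.94 to 10.3 CPM of PBS. PAP-1 3 was the highest library, the log2 difference was -1.54 (SE 0.32), and it was -1.08 without PAP-1 3. Gpr101, an orphan receptor with hypothalamic expression (chromosome X, 57496668 to 57503757), was at 2.29, 1.18 and 0.697 CPM with ShK-223 and at 6.24, 7.09 and 23.8 CPM with PAP-1. The arms did not overlap, but Control, at 1.63 to 9.08 CPM, spanned both, and the difference was -3.15 (SE 0.75), or -2.26 without PAP-1 3. Wdr6, a cofactor of tRNA methylation, was at 91.0 CPM in ShK-223 2 and up to 100.5 CPM in the other two ShK-223 libraries, against 114, 163 and 239 CPM, again with PAP-1 3 highest, and differed by -0.82 (SE 0.20). Without PAP-1 3 the difference for Wdr6 was -0.51.

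The remaining genes of this group included a transporter and a synaptic protein of neurons. Slc2a3, the neuronal glucose transporter, was at 157, 132 and 142 CPM with ShK-223 and at 184.5, 169 and 182 CPM with PAP-1, a difference of -0.31 (SE 0.08). Synpr, a synaptic vesicle protein, was at 67.8, 58.8 and 64.6 CPM against 83.85, 84.01 and 108.3 CPM, a difference of -0.53 (SE 0.13). Entpd6, a nucleotide-hydrolysing enzyme, differed by -0.46 (SE 0.11), Zfp697 by -0.53 (SE 0.13) and Ybx2, a nucleic acid-binding protein known from germ cells, by -0.76 (SE 0.18). These 20 genes were chosen by their small p and non-overlapping arms, so those features are description. Bex1, Lypd1, Stac2, Gpr101 and Eml1 were the 5 genes called by DESeq2, with a smallest adjusted p of 0.0219. On simulated data with 200 changed genes, DESeq2 made 46 false calls, and edgeR and limma-voom made 5 each. Of 66 genes changed 2-fold there, DESeq2 recovered 45, edgeR 36 and limma-voom 35. Of 75 genes changed 1.5-fold, DESeq2 recovered 20, edgeR 8 and limma-voom 9, so most differences of that size would be missed. In batch B, the only batch with both arms, ShK-223 2 differed from PAP-1 1 and 3 by -0.57 for Bex1 and 0.77 for Stac2. The direction within batch B was fixed for all 20 by choosing genes without overlap, so it is no check on them.

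**Figure D2:**
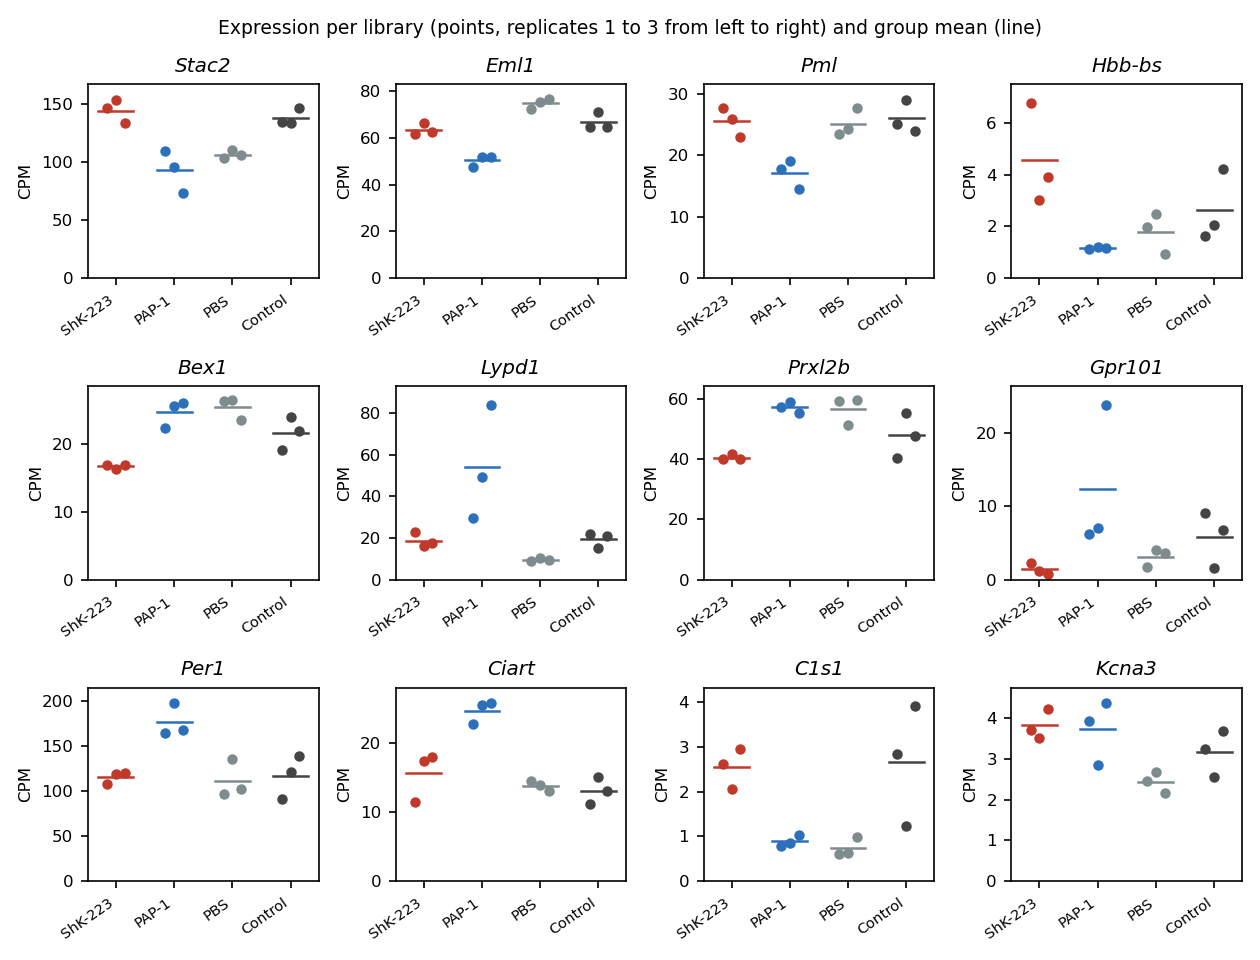
CPM of 12 genes in every library (points, replicates 1 to 3 from left to right, line at the group mean) for ShK-223, PAP-1, PBS and Control, on axes from 0. Bex1 is low in the 3 ShK-223 libraries at 16.3 to 17.0 CPM, Lypd1 is high and spread in PAP-1 at 29.6 to 83.95 CPM, and Kcna3 overlaps between the compounds.

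Kcna3, the gene of the channel that both compounds target (chromosome 3, 107036169 to 107038070), did not separate the arms. It was at 3.71, 3.53 and 4.23 CPM with ShK-223 and at 3.94, 2.86 and 4.38 CPM with PAP-1, from 50 to 79 reads per library. The ranges overlapped almost fully. The log2 difference was 0.04 (SE 0.22, 95% interval -0.44 to 0.52), which leaves room for a difference of up to about 0.5 log2 units either way, and its sign was not stable, being -0.23 within batch B. PBS was at 2.15 to 2.69 CPM and Control at 2.56 to 3.70 CPM.

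Of the 9 Kv1 subunit genes tested, 0 passed the adjusted threshold, 7 had positive and 2 negative differences, and the median was 0.12 beside -0.00014 for all genes. Of the 3 beta subunits, cytoplasmic partners that speed inactivation and aid surface delivery, Kcnab1 and Kcnab3 had the smallest p of the list, while Kcnab2 differed by 0.12 (SE 0.20). Kcnab1 was at 83.9, 122 and 87.8 CPM with ShK-223 and at 75.6, 80.2 and 67.2 CPM with PAP-1. Its arms did not overlap, with a difference of 0.40 (SE 0.14) that was 0.21 without ShK-223 2. Kcnab3 was at 36.6, 86.4 and 86.4 CPM against 23.3, 53.3 and 32.6 CPM and overlapped, with a difference of 0.94 (SE 0.34). The axonal pore subunits Kcna1 and Kcna2 differed by 0.37 (SE 0.19) and 0.37 (SE 0.21).

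Immediate early genes, which neurons and glia switch on within minutes of stimulation, mostly had lower values with ShK-223. Of 36 genes tested, 34 had negative differences where 50% of all genes did, 8 were at an unadjusted p under 0.05 and lower with ShK-223 (1.94% of all genes) and 0 were higher. Adjusted over all genes, 0 passed. The median difference was -0.79 beside -0.00014 for all genes. For 6 of the 36 the arms did not overlap and ShK-223 was below, against 5.64% of all genes. Summed over the list, ShK-223 1, 2 and 3 held 2063, 1600.0 and 1965 CPM and PAP-1 1, 2 and 3 held 4440, 2989 and 1695 CPM, with 805.5 to 904.9 CPM in PBS and 901.8 to 1705 CPM in Control. PAP-1 1 was thus the highest library and PAP-1 3 lay among the ShK-223 libraries. Without PAP-1 1 the median was -0.34, and without ShK-223 1 and PAP-1 1, left out together after their position had been seen, it was -0.57.

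Per1, Fosb and Ciart are shown with the 250 bases before their annotated starts, because Per1 belongs to both the activity-induced and the circadian genes and had the smallest p among the former, Fosb was the activity gene with the next smallest p, and Ciart had the smallest p of the clock genes. Sequences are from RefSeq on GRCm38.p6 and read 5′ to 3′ on the gene's strand. Capitals mark the E-box CACGTG, the element bound by the CLOCK and BMAL1 pair, and the half-site TGACG of the cyclic AMP response element, bound by CREB. The windows are chr11:69098699-69098948 on the plus strand for Per1, chr3:95882229-95882478 on the minus strand for Ciart and chr7:19310046-19310295 on the minus strand for Fosb.
Per1: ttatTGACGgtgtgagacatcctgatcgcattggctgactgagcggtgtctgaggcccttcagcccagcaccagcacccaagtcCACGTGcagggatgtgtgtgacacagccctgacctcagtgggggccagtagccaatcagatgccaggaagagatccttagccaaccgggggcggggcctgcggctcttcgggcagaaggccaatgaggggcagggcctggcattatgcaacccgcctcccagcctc
Ciart: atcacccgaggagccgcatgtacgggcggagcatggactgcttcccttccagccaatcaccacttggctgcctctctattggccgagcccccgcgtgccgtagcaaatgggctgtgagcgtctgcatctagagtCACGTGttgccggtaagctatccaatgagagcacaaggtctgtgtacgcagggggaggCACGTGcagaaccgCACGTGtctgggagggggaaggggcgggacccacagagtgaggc
Fosb: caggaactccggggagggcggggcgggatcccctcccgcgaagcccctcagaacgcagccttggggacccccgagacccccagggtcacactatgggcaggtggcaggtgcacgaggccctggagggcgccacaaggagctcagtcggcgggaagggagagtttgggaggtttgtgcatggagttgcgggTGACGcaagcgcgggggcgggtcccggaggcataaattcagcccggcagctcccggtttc
Searched on either strand, the E-box was in 1854 of 27025 genes with a RefSeq promoter window (6.86%) and TGACG in 5347 (19.8%). Per1 held both, an E-box with its first base 166 bases before the start and a half-site 246 bases before. Ciart held 3 E-boxes, at 116, 58 and 44 bases before, and Fosb 1 half-site 60 bases before. Among the immediate early genes in the promoter table, 20 of 28 held TGACG and 7 of 28 the E-box, and 5 of 17 clock genes held the E-box. The letters describe these windows and say nothing of binding in these brains.

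Per1 encodes a repressor of the circadian clock that neuronal activity and glucocorticoids also induce. It was at 108, 119 and 120.0 CPM in ShK-223 1, 2 and 3 and at 165, 198 and 167.5 CPM in PAP-1. PAP-1 lay above the 96.9 to 135.5 CPM of PBS and the 90.9 to 139 CPM of Control, and ShK-223 lay within both ranges. The log2 difference was -0.61 (SE 0.17, 95% interval -0.98 to -0.25). Per1 was -0.66 without PAP-1 1, so this difference did not lean on the library with the highest activity genes.

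Fosb, a subunit of the AP-1 transcription factor, depended on that library. It was at 16.2, 16.6 and 23.04 CPM with ShK-223 and at 212, 40.9 and 23.4 CPM with PAP-1. The arms did not overlap, but PAP-1 3 was next to ShK-223 3. The difference of -2.31 (SE 0.68) was -0.79 without PAP-1 1. Fos, its best-known relative, was at 53.0, 18.9 and 44.7 CPM against 297, 97.4 and 28.8 CPM and overlapped, with a difference of -1.86 (SE 0.83) that was -0.70 without PAP-1 1. Egr2, an activity-induced zinc finger factor, was at 12.6, 3.92 and 7.88 CPM against 70.2, 33.1 and 7.48 CPM. It overlapped through PAP-1 3 and differed by -2.18 (SE 0.78), or -1.32 without PAP-1 1.

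Fosl2 and Nr4a2 were separated in all libraries with a steadier PAP-1 arm. Fosl2, another AP-1 subunit, was at 38.1, 34.5 and 28.9 CPM with ShK-223 and at 56.3, 76.98 and 49.5 CPM with PAP-1, a difference of -0.85 (SE 0.26), with 16.7 to 18.3 CPM in PBS. Nr4a2, an orphan nuclear receptor, was at 59.7, 32.9 and 34.4 CPM against 82.1, 83.04 and 87.2 CPM, a difference of -0.99 (SE 0.35), with 24.9 to 45.0 CPM in PBS. Both compounds' libraries lay above PBS for Fosl2, and PAP-1 lay further. Jun differed by -0.86 (SE 0.36), Junb by -0.94 (SE 0.48) and Npas4 by -1.31 (SE 1.02), all with overlapping arms. Without PAP-1 1 these were -0.37, -0.51 and 0.23. In the within-batch comparison the list median was -1.058.

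Circadian genes as a whole were centred on 0, with a median of -0.05 over 20 tested genes, 8 positive and 12 negative, and 0 passing the adjusted threshold. Ciart, a repressor of CLOCK and BMAL1, was at 11.5, 17.5 and 18 CPM with ShK-223 and at 22.8, 25.6 and 25.8 CPM with PAP-1. Every PAP-1 library was also above the 13.04 to 14.5 CPM of PBS and the 11.2 to 15.05 CPM of Control. The difference was -0.66 (SE 0.17). Of the activating arm of the clock, Bmal1 was at 34.6, 45.6 and 46.7 CPM against 24.2, 35.4 and 34.1 CPM and overlapped, a difference of 0.44 (SE 0.17), and Clock differed by 0.24 (SE 0.11) without overlap.

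Myelin and oligodendrocyte genes had higher values with ShK-223 throughout the list. All 20 tested genes had positive differences where 50% of all genes did, 13 were at an unadjusted p under 0.05 (2.6% of all genes in that direction), and 0 passed after adjustment over all genes. The median was 0.85. Of the 20, 4 had non-overlapping arms with ShK-223 above, beside 4.97% of all genes, and the arms of the others overlapped. Summed CPM of the list was 3692, 7048 and 6309 in ShK-223 1, 2 and 3 and 2332, 4360 and 2508 in PAP-1, so that ShK-223 1 lay below PAP-1 2. PBS was at 4626 to 8520 and Control at 5174 to 7099, and all 3 PAP-1 libraries and ShK-223 1 were below every library of those groups. In bulk tissue, fewer oligodendrocytes and less transcript per oligodendrocyte cannot be told apart. Within ShK-223 the libraries had the same order in striatal markers, whereas within PAP-1 the library highest in myelin genes, PAP-1 2, was lowest in striatal markers, and the part of tissue makeup in this result was not tested.

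Myrf, the transcription factor that drives myelin genes, was at 51.2, 86.4 and 71.5 CPM with ShK-223 and at 23.4, 48.7 and 26.1 CPM with PAP-1. The arms did not overlap, although ShK-223 1 and PAP-1 2 nearly met, and the difference was 1.09 (SE 0.33). Mbp, myelin basic protein, was at 1445, 2719 and 2490 CPM against 860.4, 1695 and 981.6 CPM, a difference of 0.91 (SE 0.33, 95% interval 0.18 to 1.64). It overlapped through ShK-223 1 and PAP-1 2. Mobp, another structural myelin protein, differed by 1.05 (SE 0.34), and Trf, the iron carrier made by oligodendrocytes, by 0.77 (SE 0.26). Olig2, a factor of the whole oligodendrocyte lineage, was at 27.1, 26.3 and 26.7 CPM against 20.1, 23.9 and 19.0 CPM, with a smaller difference of 0.35 (SE 0.25). Precursor genes had a median of -0.03 over 10 genes, while Bcas1, a protein of newly myelinating cells in that list, differed by 0.92 (SE 0.29) without overlap. In batch B the myelin median was 1.62, and without single libraries it was 0.65 to 1.24.

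**Figure D3:**
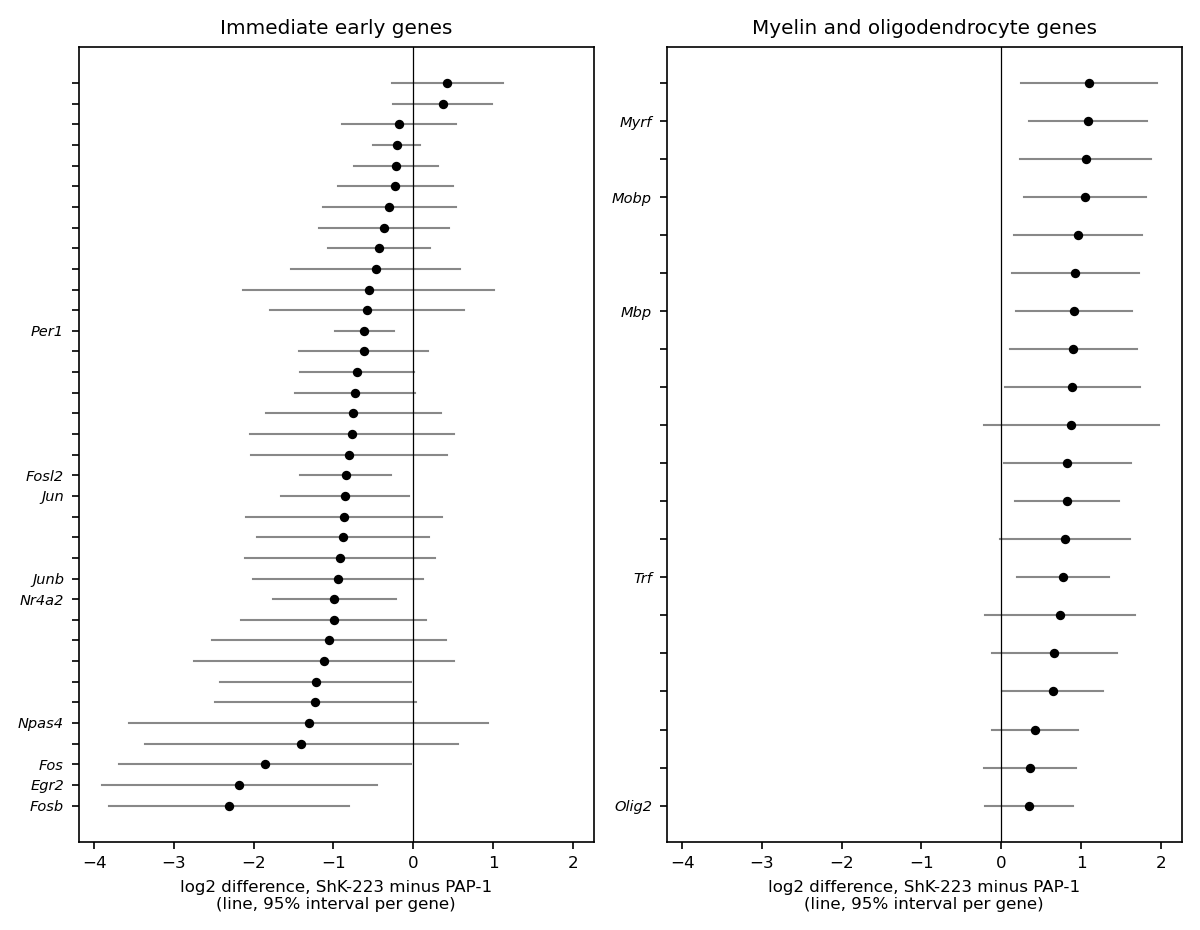
Log2 difference of ShK-223 minus PAP-1 (point) with its 95% interval per gene (line) for the 36 immediate early genes and the 20 myelin and oligodendrocyte genes, with names on genes described in the text. Points of the first list lie below 0 for 34 genes and reach -2.31 at Fosb, and all 20 of the second lie above 0, with intervals that are wide in both.

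Markers of brain regions differed between libraries within the arms. Striatal genes had positive differences for 18 of 18, a median of 1.40 and 0 passing, and their summed CPM was 613, 2487 and 1381 in ShK-223 1, 2 and 3 against 658.0, 577.5 and 791 in PAP-1. ShK-223 2 and 3 were high and ShK-223 1 lay within the PAP-1 range, the same order of libraries as for myelin within ShK-223. Drd2, the dopamine receptor of indirect-pathway striatal neurons, was at 3.82, 60.1 and 28.0 CPM against 2.96, 2.80 and 5.01 CPM, a difference of 3.09 (95% interval 0.75 to 5.42). Adora2a, the adenosine receptor of the same cells, was at 2.18, 72.8 and 32.7 CPM against 4.93, 2.11 and 5.87 CPM, and Pde10a, a striatal phosphodiesterase, differed by 1.69 (SE 0.61), or 0.92 without ShK-223 2. The list's median was 0.75 without ShK-223 2. Of the 18, 1 had arms that did not overlap, with ShK-223 above, beside 4.97% of all genes. It was Six3, a factor of striatal neuron development, at 5.19, 16.1 and 13.2 CPM against 0.526, 2.80 and 3.28 CPM.

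Cerebellar genes differed in the other direction, mainly through 1 library. Of 19 tested, 18 were negative, 5 had ShK-223 below PAP-1 in all libraries (5.64% of all genes) and 0 passed after adjustment. Gabra6, a receptor subunit of cerebellar granule cells, was at 0.328, 0.0560 and 0.429 CPM with ShK-223 and at 58.4, 0.114 and 0.518 CPM with PAP-1, and Cbln3, a granule cell synapse organiser, at 0.874, 0.448 and 1.55 CPM against 222.6, 1.60 and 1.27 CPM. Only PAP-1 1 held these transcripts in number. The median over 19 genes was -1.80 and was -0.20 without PAP-1 1, and for Fat2, a granule cell cadherin, the difference was -5.76 (SE 2.63) and 0.11 without that library. Choroid plexus genes, the makers of cerebrospinal fluid, had a median of 1.17 over 15 genes, 15 positive. Ttr, their main product, ran from 3.93, 1217 and 354 CPM in ShK-223 to 468, 4.97 and 66.2 CPM in PAP-1, a spread within each arm far above any difference between them. Without ShK-223 2 the choroid plexus median was 0.12.

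**Figure D4:**
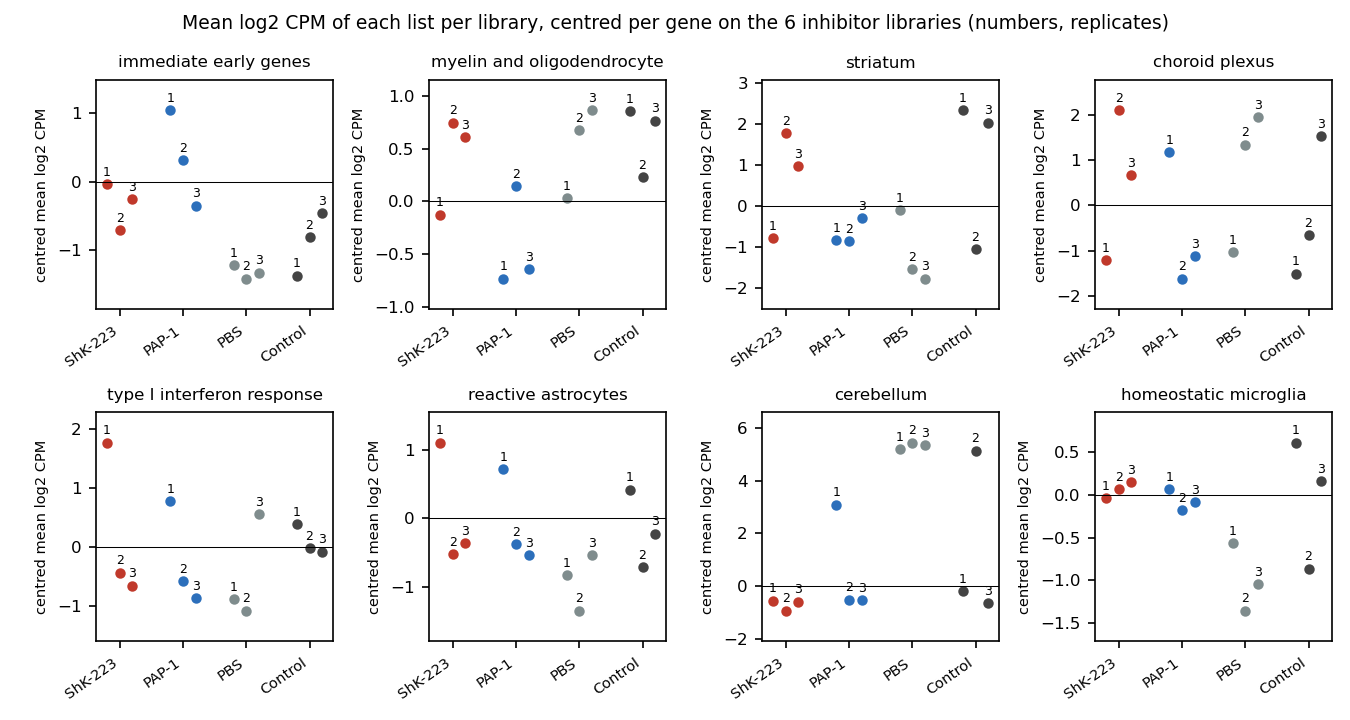
Mean log2 CPM of 8 gene lists in each library, centred per gene on the 6 inhibitor libraries, with replicate numbers beside the points, for ShK-223, PAP-1, PBS and Control. Immediate early genes are highest in PAP-1 1, myelin genes are lowest in PAP-1 1 and 3, striatal genes are high in ShK-223 2 and 3, and interferon and reactive astrocyte genes are high in ShK-223 1 and PAP-1 1.

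Microglia, the brain cells in which Kv1.3 is mainly studied, gave no gene that separated the arms after adjustment. Homeostatic microglial genes had a median of 0.16 over 18 tested, with 15 positive and 0 at an unadjusted p under 0.05, where 4.54% of all genes were. Their summed CPM was 2018 to 2093 with ShK-223 and 1849 to 2400.0 with PAP-1, beside 1371 to 1579 in PBS and 1511 to 2785 in Control. P2ry12, the receptor that marks resting microglia, was at 31.0, 47.3 and 47.8 CPM against 32.9, 34.6 and 39.3 CPM, a difference of 0.24 (SE 0.38, 95% interval -0.61 to 1.09).

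Genes of plaque-associated microglia had a median of 0.20 over 30, with 26 positive and 0 at an unadjusted p under 0.05. Trem2, the lipid receptor needed for that state, was at 68.5, 69.5 and 101 CPM with ShK-223 and at 102, 62.8 and 62.2 CPM with PAP-1, a difference of 0.08 (SE 0.60, 95% interval -1.24 to 1.40). Each arm had 1 high library, ShK-223 3 and PAP-1 1. Cst7, a cystatin induced at plaques, was at 35.2, 40.1 and 66.3 CPM against 44.3, 34.1 and 33.4 CPM, a difference of 0.34 (SE 0.70). Ch25h, which makes 25-hydroxycholesterol, differed by 1.24 (SE 0.78), Lyz2, lysozyme, by 0.68 (SE 0.45, and 0.17 without ShK-223 1), Spp1, osteopontin, by 0.87 (SE 0.61) and Gpnmb by 0.75 (SE 0.54). These intervals are wide: for 11 of the 30 genes the interval lay within 1 log2 unit, beside 75.7% of all genes, so that a 2-fold difference between the compounds in the others was not excluded. Their width also includes the spread within PBS and Control, since it was estimated over all groups. Trem2 ran from 8.2 to 40.4 CPM in PBS and from 20.3 to 98.5 CPM in Control.

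Several complement genes had arms that did not overlap. Of 17 tested, 15 were positive, 4 were at an unadjusted p under 0.05 and higher with ShK-223 (2.6% of all genes), 4 had ShK-223 above PAP-1 in all libraries (4.97% of all genes), 0 passed after adjustment, and the median was 0.17. C1s1, a protease of the classical pathway (chromosome 6, 124530345 to 124542359), was at 2.62, 2.07 and 2.95 CPM with ShK-223 and at 0.788, 0.857 and 1.04 CPM with PAP-1, from 12 to 55 reads per library. The PAP-1 values were close to the 0.613 to 0.984 CPM of PBS, and Control spread from 1.22 to 3.92 CPM. The fold was 2.83 (95% interval of the log2 difference 0.61 to 2.39). C1ra, its partner protease, was at 6.12, 5.93 and 8.14 CPM against 2.96, 3.71 and 2.07 CPM, a difference of 1.21 (SE 0.40), with 0.964 to 1.97 CPM in PBS. Both have near-identical neighbouring copies in the mouse, so reads may be shared. C4b, a classical pathway component, was at 317, 305 and 291 CPM against 252, 246 and 188 CPM without overlap, a difference of 0.41 (SE 0.41). That SE includes the spread within the background groups, where C4b ran from 125 to 458 CPM in Control. C3, the central component, was at 24.8, 3.69 and 4.77 CPM against 4.99, 3.20 and 1.21 CPM, and its difference of 1.83 (SE 0.75) was 0.44 without ShK-223 1.

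Interferon-induced genes had positive differences for 25 of 25, a median of 0.69, 0 at an unadjusted p under 0.05 and 0 passing, and rested on 1 library. Their summed CPM was 826 in ShK-223 1 and 449 in PAP-1 1, against 179.6 to 211.5 in the other 4, 245.1 to 536.6 in PBS and 256 to 371 in Control. Mx1, an antiviral GTPase, was at 14.4, 1.064 and 1.18 CPM with ShK-223 and 3.28, 0.800 and 0.518 CPM with PAP-1. Rsad2, viperin, was at 20.04, 3.08 and 2.62 CPM against 7.42, 1.49 and 1.90 CPM, and Isg15, the ubiquitin-like modifier, at 23.9, 2.69 and 2.09 CPM against 9.92, 2.80 and 2.25 CPM. The list median was -0.44 without ShK-223 1, 1.43 without PAP-1 1 and -0.35 within batch B, so that no direction held. Reactive astrocyte genes followed the same 2 libraries, with Gfap at 2317, 1113 and 1331 CPM against 2127, 1015 and 995 CPM, a difference of 0.20 (SE 0.54).

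Of T and NK cell genes, where Kv1.3 is also studied, 6 of 17 matched genes passed the filter on low counts, and their median was -0.02. Cd4 was the only one of them at an unadjusted p under 0.05, at 0.710, 19.3 and 11.4 CPM with ShK-223 and 0.920, 0.800 and 1.27 CPM with PAP-1, a difference of 3.38 (SE 1.34). It was high in ShK-223 2 and 3, the libraries high in striatal genes, and at 29.6 and 23.7 CPM in Control 1 and 3, which also held the most striatal transcript (3481 and 2750 CPM summed). Zap70, a kinase of the T cell receptor, was at 2.95, 1.57 and 2.14 CPM with ShK-223 and at 3.15, 2.63 and 2.65 CPM with PAP-1. Cd74, the invariant chain of class II antigen presentation, was at 54.9, 27.4 and 25.4 CPM against 11.5, 40.2 and 20.1 CPM, a difference of 0.58 (SE 0.48) that was -0.20 without ShK-223 1 and PAP-1 1.

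Genes of amyloid production and clearance differed little and precisely. Of 25 tested, 19 were positive, 2 were higher at an unadjusted p under 0.05 (2.6% of all genes) and 0 passed. The median was 0.05, and 24 of 25 had an interval within 1 log2 unit. Picalm, an endocytosis adaptor linked to Alzheimer risk, differed by 0.20 (SE 0.08) without overlap between the arms, and Mme, neprilysin, which degrades amyloid peptide, by 1.21 (SE 0.61) with overlap. Mme was at 7.70, 18.9 and 13.2 CPM with ShK-223 and 2.7 to 8.1 CPM with PAP-1. It was at 17.7 and 15.6 CPM in Control 1 and 3, high in striatal genes like ShK-223 2 and 3, and at 2.85 CPM in Control 2. The part of tissue makeup in this difference was not tested. App was at 1928, 1898 and 2014 CPM against 1840.0, 1940 and 1941 CPM, a difference of 0.03 (SE 0.09, 95% interval -0.16 to 0.22). Apoe, the main lipid carrier of brain, was at 1670, 1816 and 1971 CPM against 2321, 1630.0 and 1684 CPM, a difference of -0.05 (SE 0.21), and Thy1, whose promoter drives the transgenes, differed by -0.05 (SE 0.31). Whether reads of the human transgenes entered App is not stated in the sources.

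A beta globin and both alpha globins had higher values in every ShK-223 library, whereas the summed CPM of the haemoglobin and erythroid list overlapped, at 188 to 317 with ShK-223 and 257 to 332 with PAP-1. Hbb-bs, an adult beta globin (chromosome 7, 103826534 to 103828096), was at 6.77, 3.02 and 3.91 CPM with ShK-223 and at 1.117, 1.2 and 1.152 CPM with PAP-1, from 17 to 124 reads per library. The PAP-1 libraries were close to each other, and PBS ranged from 0.922 to 2.48 and Control from 1.62 to 4.20 CPM. The difference was 1.98 (SE 0.47). Hba-a1 and Hba-a2, alpha globins that are near-identical copies and may share reads, differed by 1.92 (SE 0.63) and 2.16 (SE 0.76), the latter by 1.36 without ShK-223 1. Of the 6 listed genes tested, these 3 had non-overlapping arms with ShK-223 above (4.97% of all genes), and 0 passed after adjustment. The list was mixed in direction, with 4 positive and 2 negative differences, the lowest at -1.45.

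Metabolic and housekeeping lists were close to 0 with narrow intervals. Nuclear genes of oxidative phosphorylation had a median of -0.10 over 38, with 33 negative, 9 with ShK-223 below PAP-1 in all libraries (5.64% of all genes) and all 38 intervals within 1 log2 unit. Ndufa2, a subunit of complex I, was at 29.8, 31.3 and 27.0 CPM against 41.4, 34.8 and 34.1 CPM, a difference of -0.32 (SE 0.11). Cytosolic ribosomal proteins had a median of -0.09 over 47 and cholesterol synthesis of -0.12 over 24, the latter with 21 negative. Presynaptic genes were at 0.05 over 25 and postsynaptic genes at 0.02 over 26, and Snap25, a protein of vesicle fusion, was at 2193, 2850 and 2895 CPM against 2066, 2587 and 2300.0 CPM, a difference of 0.19 (SE 0.13). Over all 44 lists, 59 of 774 genes were at an unadjusted p under 0.05, beside 4.54% of all genes, and 0 passed.

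Stress and hormone response lists were centred near 0 and held some genes with separated arms. Gsta4, a glutathione transferase that clears lipid aldehydes, was at 39.4, 31.6 and 34.7 CPM with ShK-223 and at 43.2, 49.03 and 52.05 CPM with PAP-1, a difference of -0.45 (SE 0.12), in a list of 16 oxidative and xenobiotic genes with a median of 0.03. Of those 16, 0 lay above and 1 below without overlap (4.97% and 5.64% of all genes). Ddit4, a stress and glucocorticoid-induced inhibitor of mTOR signalling, was at 28.9, 24.9 and 30.7 CPM against 30.95, 36.5 and 46.6 CPM and did not overlap, a difference of -0.43 (SE 0.15). The 17 glucocorticoid genes, Ddit4 and Per1 among them, were split, 8 positive and 9 negative, with 1 above and 2 below without overlap (4.97% and 5.64% of all genes). Manf, a chaperone of the endoplasmic reticulum, was at 31.5, 28.8 and 31.2 CPM against 22.5, 23.9 and 26.2 CPM, a difference of 0.34 (SE 0.12). Its unfolded protein response list of 21 genes had a median of 0.01, with 11 positive and 10 negative. Of the 21, 5 had ShK-223 above in all libraries (4.97% of all genes) and 0 passed after adjustment.

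Antigen presentation and phagocytosis genes overlapped between the arms. The median was 0.18 over 17 class I genes, 0.17 over 12 class II genes and 0.27 over 14 Fc receptor and phagocytosis genes, with 0 at an unadjusted p under 0.05 in each. Cd36, a scavenger receptor, was at 21.4 CPM in ShK-223 1 and at 0.75 to 2.71 CPM in the other 5 libraries. Cbr2, known from border macrophages and lining cells of the brain surface, was likewise at 71.9 CPM in ShK-223 1 and at 0.75 to 7.50 CPM in the others. Ptgs2, the inducible cyclooxygenase that activity also switches on in neurons, was at 24.8, 14.2 and 24.5 CPM against 139, 29.7 and 13.5 CPM, a difference of -1.52 (SE 0.75) with PAP-1 1 highest. Of cell types outside the neurons, resting astrocytes had a median of 0.01 over 16 genes and endothelial cells and pericytes of 0.02 over 20.

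Some synaptic and regional genes also had separated arms. ShK-223 lay below for 1 of 25 presynaptic and 3 of 26 postsynaptic genes (5.64% of all genes), and above for 0 of either (4.97%). Of 20 cortical genes 1 was above and 3 were below, and of 12 midbrain and hindbrain genes 1 was above and 0 below. Gria1, an AMPA receptor subunit, was at 505, 471 and 479 CPM with ShK-223 and at 525, 574.5 and 679 CPM with PAP-1, a difference of -0.29 (SE 0.10). Syp, synaptophysin, was at 604, 546 and 622 CPM against 638, 711.5 and 697 CPM, a difference of -0.21 (SE 0.09). Foxp2, a factor of deep cortical and striatal neurons, was at 13.5, 30.9 and 22.7 CPM against 6.96, 12.4 and 10.6 CPM without overlap, a difference of 1.16 (SE 0.36). Chat, the acetylcholine-synthesising enzyme, was at 0.655, 5.26 and 3.59 CPM against 0.394, 0.629 and 0.518 CPM. Both Foxp2 and Chat were higher in ShK-223 2 and 3 than in ShK-223 1, as striatal genes were. Hippocampal genes had a median of -0.29 over 20, thalamic of 0.44 over 13, hypothalamic and pituitary of -0.46 over 14 and olfactory bulb of -0.76 over 10.

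**Figure D5:**
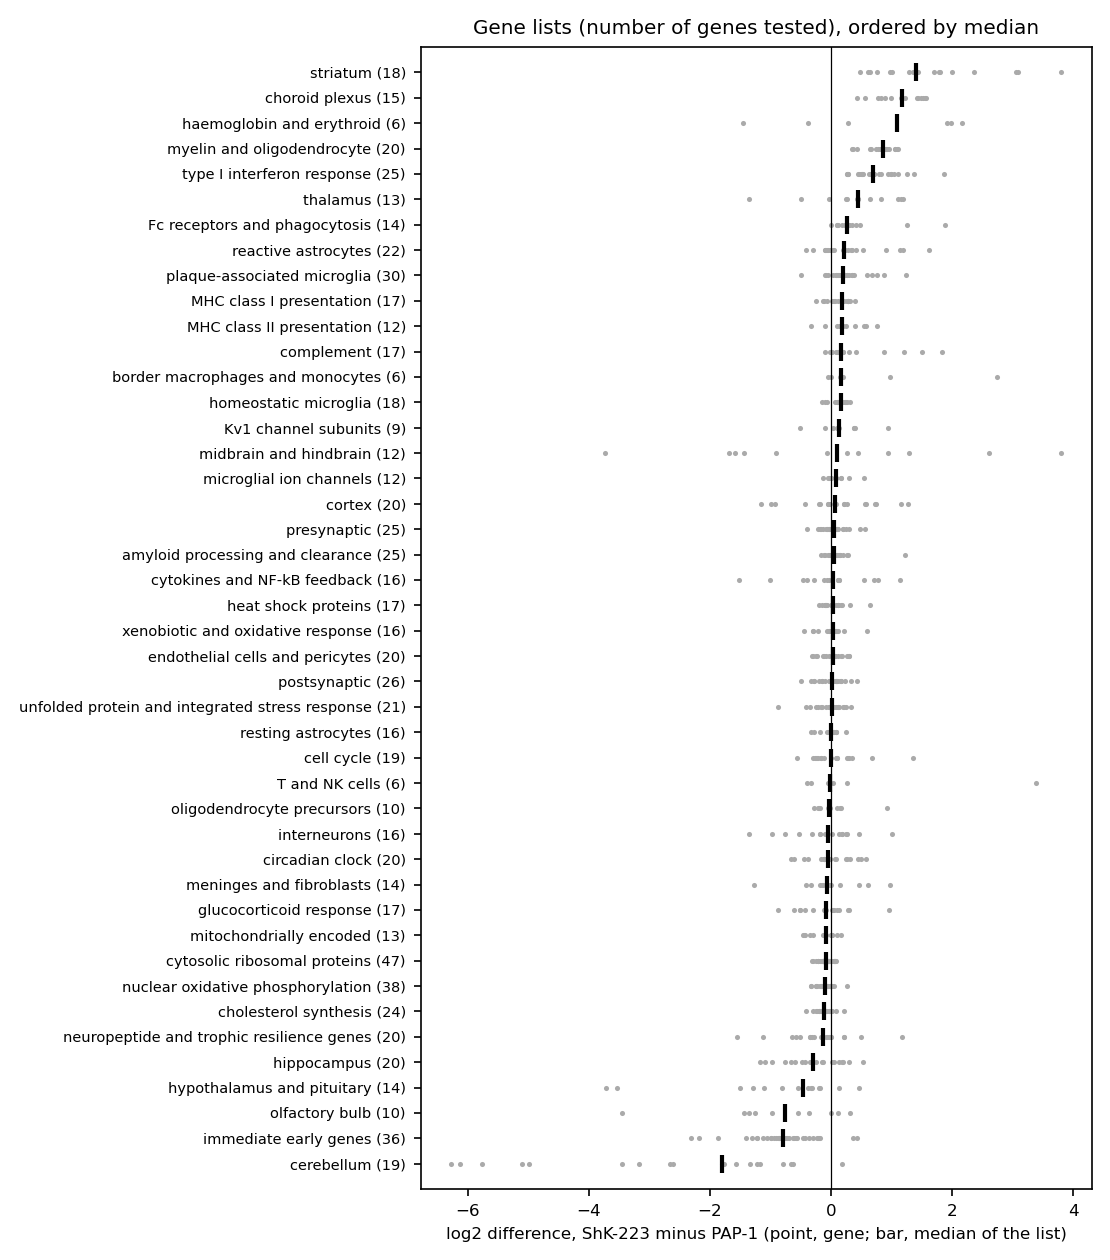
Log2 difference of ShK-223 minus PAP-1 for every tested gene of 44 lists (grey points, number of genes in brackets), ordered by the list median (black bar). The medians run from 1.40 for striatal to -1.80 for cerebellar genes, with myelin at 0.85 and immediate early genes at -0.79, while microglial, synaptic and amyloid lists lie near 0.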

How the data were processed

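Whole-brain RNA of 12 5xFAD mice was sequenced, and raw read counts per gene were deposited by the authors in a table of 21643 rows, 2893 of them at 0 throughout and 22 repeating a name. The submitters' processing notes list STAR 2.7.11a, R 4.3.2, DESeq2 1.40.2 and the builds GRCm38 and mm10. No source used here gives the counting tool, strand setting or annotation release, so reads of overlapping, antisense or near-identical genes may be shared. Columns were matched to samples through the library names. The smallest chi-square per gene between any of the 6 libraries compared was 8.54, above what sampling noise alone gives. The column of Control 2 carries another lane name than the other columns.

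From the deposited counts, filterByExpr left 15061 genes, scaled by TMM and fitted with the quasi-likelihood test of edgeR 4.0.16 (R 4.3.3) on all 12 libraries with the group as the only term, giving 8 residual degrees of freedom. P-values were adjusted by Benjamini-Hochberg over all genes tested, with calls at 0.05. SE is the log2 difference over the root of F, and intervals are 95%. CPM use TMM-scaled totals. Totals of 14364013 to 19048551 counts per library limit low genes, and intervals on single counts would cover counting error only.

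Samples were grouped by their treatment label. Replicate numbers only name the libraries. Each p-value weighs the difference between the arms against the spread between mice of the same group, estimated over all groups together. Those groups include Control, whose libraries differ in cerebellar transcript. Batch was left out of the main fit because only batch B holds both arms. Named genes were to be up to 10 called per direction, by size of change, among genes without overlap between arms, a mean log2 CPM of 1 or more and a full gene name. As edgeR called none, the 10 of smallest p per direction stand in. Fixed genes and up to 2 members of smallest p per described list were added. Other genes were named after their values were seen: Fosl2, Nr4a2, Fos, Jun, Npas4, Bmal1, Clock, Trf, Olig2, C3, C4b, Ttr, Hba-a2, Isg15, Spp1, Gpnmb, Mme, Kcna1, Kcna2, Six3 and Abcd2. The 44 lists held 835 symbols, of which 826 matched and 774 were tested. They are described by counts and medians, with no set test. Values of some list members are not reported here. The comparison, the gene lists and the members were chosen with earlier results of these data known.

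Alternatives were RLE factors, DESeq2 1.42.0, limma-voom (limma 3.58.1), other filters, the 6 libraries alone and fits lacking Control 2 or both Control 2 and PAP-1 1. Further ones were batch or RNA integrity as a term, a threshold of 0.1, each library left out and batch B alone. The PBS libraries, which held the most cerebellar transcript, stayed in the fits lacking Control 2. The gene-level tests were tried on simulated data with known changes. Coordinates are from GENCODE on GRCm38.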

Additional observations from a re-analysis of the deposited data

How the results depend on the processing

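The count of genes called was 0 in every fit except DESeq2, which called 5, with an adjusted p given as NA for 117 genes, and the fit without ShK-223 1, which called Abcd2 alone (adjusted p 0.0496 in edgeR, log2 difference 0.82 against 0.57 with all libraries). Leaving out single libraries gave 0 to 1 called genes and 304 to 1396 genes at an unadjusted p under 0.05, against 684, with the fewest without ShK-223 2 and the most without ShK-223 1. It was 435 without ShK-223 3 and 424 without PAP-1 3. That count was 1242 without Control 2, 1283 without Control 2 and PAP-1 1, 1051 without ShK-223 1 and PAP-1 1 (chosen after seeing the data) and 455 with batch as a term. The cause was not tested.

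Of 1941 values of 81 named genes under these alternatives, 1902 kept their direction and side of the threshold, 6 passed it where the main value did not, and 33 turned sign, in 13 genes. Without Control 2 and PAP-1 1, Apoe was 0.13, Thy1 0.19, Fat2 0.12 and Npas4 0.23. Without ShK-223 1 and PAP-1 1, Apoe was 0.19, Thy1 0.0235, Cd74 -0.20, Isg15 -0.0846 and Npas4 0.50. With batch as a term, Kcna3 was -0.12 and App -0.0393. Within batch B, Kcna3 was -0.23, Trem2 -0.19, Gfap -0.39, Mx1 -0.32, Rsad2 -0.29 and Isg15 -0.80. Without single libraries the ranges were -0.14 to 0.13 for Apoe, -0.18 to 0.66 for Gfap, -0.44 to 3.06 for Mx1, -0.33 to 2.34 for Rsad2, -1.06 to 1.92 for Isg15, -0.21 to 0.19 for Thy1, -0.0033 to 3.88 for Ttr, -0.12 to 0.17 for Kcna3, -0.13 to 0.35 for Trem2, -6.70 to 0.11 for Fat2 and -2.18 to 0.23 for Npas4. List medians moved by more than the pooled SD of the list's mean among libraries of 1 arm in 56 of 1056 cases. A median can change sign without counting as moved where libraries of an arm differ much. The interferon list had 0 such moves, though its median ran from -0.44 to 1.43 without single libraries. Reactive astrocyte genes also had 0, with a median from -0.44 to 0.66.

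No paired analysis was possible because the replicate numbers only follow the order of the samples. With 3 mice in each arm, 1 batch shared by both and tissue markers that differ between mice of one arm, small differences could not be resolved, and only ShK-223 2 and PAP-1 1 and 3 allow a comparison of the arms within 1 batch. Genes at a few CPM, such as C1s1, rest on few reads.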
